A study of Mus musculus with 15 samples.

Results

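Regulatory T cells (Treg), a CD4 lineage built on the transcription factor Foxp3, were compared with conventional CD4 T cells (Tconv) by RNA sequencing. Both came from knockout mice (KO) in which the Hpgd gene is targeted in Treg. These were 8 of the 15 sequenced samples of the study: 4 Treg KO (samples 574, 576, 578 and 580) and 4 Tconv KO (samples 575, 577, 579 and 581). The other 7 samples, 4 Treg and 3 Tconv of animals labelled wild-type (WT), served to ask where the knockout comparison differed. All cells were sorted from spleens of mice on the C57BL/6 background. The KO animals carried a conditional allele of Hpgd, which encodes the prostaglandin-degrading enzyme hydroxyprostaglandin dehydrogenase, together with a FOXP3-Cre-YFP driver. The driver is active where Foxp3 is transcribed, so recombination is aimed at Treg, although the labels give the knockout genotype to the Tconv samples of these mice too. No label used here names the surface markers of the sort, the age of the animals or the number of animals behind a sample, or says whether the WT animals carried the driver. Nothing in the labels says which samples came from separate animals, so p-values measure the spread between these samples.

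Values are normalized read counts, that is gene counts divided by 1 size factor per library. Tests covered the 11069 of 17594 genes in the table (62.9%) that reached 10 in 3 or more of the 8 KO libraries. Where 4 values are listed for a group, they follow the order of the sample numbers, so that adjacent samples (574 with 575, 576 with 577, 578 with 579, 580 with 581) take the same place in both lists. Differences are log2 fold changes ± SE, Treg minus Tconv, on the scale of log2(value + 1), which understates the change of low genes. Adjusted p-values come from limma with Benjamini-Hochberg adjustment over all genes tested, and a gene is called higher or lower where that p is under 0.05. The fit takes 1 estimate of the spread over all 15 libraries, so SE and p of the KO comparison rest in part on the WT libraries.

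Treg restrain other immune cells, and their state rests on Foxp3. They take up interleukin-2 through a receptor with high affinity, signal through STAT5, and carry inhibitory receptors, enzymes that turn extracellular ATP into adenosine, and a surface protein that holds latent TGF-beta. Tconv include naive cells, which recirculate through lymphoid organs, and helper and memory cells, which make cytokines. Prostaglandin E2 reaches T cells through receptors that raise cyclic AMP, and Hpgd starts its breakdown.

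The upstream sequences of genes at both ends of the comparison are shown first, because these genes are among those with the largest differences. Sequences are from RefSeq (assembly GRCm38.p6) and give the 250 bases before the annotated start, 5′ to 3′ on the strand of the gene. The start is that of RefSeq, while the gene intervals printed below are those of GENCODE vM21 on mm10; where the 2 annotations place the start differently, the window can overlap the interval, as it does for Dscam, or lie inside it, as it does for Atp8b4 and Gzmk. Of the 24 genes picked below as the largest rises and falls, 18 had an entry. Shown are the first 3 in each direction whose window held at most 30 bases of an annotated exon. Capitals mark matches, on either strand, to TGTTTAC (forkhead factors), CTTTGAT (TCF and LEF factors), CCACACCC (Kruppel-like factors) or CCGGAAG (ETS factors).
Dscam (chr16:97170736-97170985, minus strand): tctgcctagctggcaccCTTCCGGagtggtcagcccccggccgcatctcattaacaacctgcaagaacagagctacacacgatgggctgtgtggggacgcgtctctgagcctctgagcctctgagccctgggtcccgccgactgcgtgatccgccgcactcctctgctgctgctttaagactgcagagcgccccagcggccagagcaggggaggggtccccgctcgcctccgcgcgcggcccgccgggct
Il2ra (chr2:11642542-11642791, plus strand): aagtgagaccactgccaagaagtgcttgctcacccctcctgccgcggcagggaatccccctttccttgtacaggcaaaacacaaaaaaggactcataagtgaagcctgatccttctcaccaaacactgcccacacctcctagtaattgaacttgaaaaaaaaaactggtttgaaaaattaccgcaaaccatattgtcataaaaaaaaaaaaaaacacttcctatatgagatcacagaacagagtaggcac
Dnah7a (chr1:53706785-53707034, minus strand): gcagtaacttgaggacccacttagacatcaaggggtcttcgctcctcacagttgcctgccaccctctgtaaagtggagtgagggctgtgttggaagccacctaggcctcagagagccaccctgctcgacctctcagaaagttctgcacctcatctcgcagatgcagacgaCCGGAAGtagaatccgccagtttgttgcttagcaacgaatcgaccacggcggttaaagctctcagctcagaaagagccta
Pdlim4 (chr11:54069018-54069267, minus strand): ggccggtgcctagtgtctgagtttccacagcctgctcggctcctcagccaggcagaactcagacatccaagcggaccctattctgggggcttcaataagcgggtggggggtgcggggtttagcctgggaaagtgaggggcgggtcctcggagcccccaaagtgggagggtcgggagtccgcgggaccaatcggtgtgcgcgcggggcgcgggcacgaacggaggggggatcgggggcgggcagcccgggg
Atp8b4 (chr2:126491554-126491803, minus strand): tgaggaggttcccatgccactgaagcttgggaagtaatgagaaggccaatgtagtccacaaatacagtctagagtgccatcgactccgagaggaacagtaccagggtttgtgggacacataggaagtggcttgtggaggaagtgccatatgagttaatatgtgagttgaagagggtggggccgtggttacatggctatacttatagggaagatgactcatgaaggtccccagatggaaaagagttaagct
Gzmk (chr13:113180966-113181215, minus strand): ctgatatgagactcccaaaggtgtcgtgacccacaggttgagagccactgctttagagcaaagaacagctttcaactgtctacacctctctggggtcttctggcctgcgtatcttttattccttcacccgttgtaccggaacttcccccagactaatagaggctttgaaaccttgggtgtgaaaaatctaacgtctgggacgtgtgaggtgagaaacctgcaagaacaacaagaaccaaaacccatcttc
The first 3 belong to genes higher in Treg and the last 3 to genes lower in Treg. Only 2 matches fell in these 6 windows, both to CCGGAAG: in Dscam between 233 and 227 bases before the start, on the opposite strand, and in Dnah7a between 80 and 74 bases before it. Over all start sites with an entry, CCGGAAG stood in 10.2% of 1687 windows of genes higher in Treg KO, 14.4% of 1738 windows of genes lower in Treg KO and 14.4% of 10748 windows of all genes tested. The forkhead letters stood in 2.73%, 2.13% and 2.21% of these windows, the TCF and LEF letters in 1.66%, 1.67% and 2.11%, and the Kruppel-like letters in 3.73%, 3.74% and 3.45%. In the whole table of 32851 start sites the 4 motifs stood in 3.17% (forkhead), 3.21% (TCF and LEF), 3.20% (Kruppel-like) and 6.91% (ETS). Entries matched 1309 of the genes higher, 1338 of the genes lower and 8438 of all genes tested.

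The labels of the cell types were checked on the 8 Treg markers, all of which were tested. All 8 were higher in Treg KO, against 15.9% of all genes tested. Foxp3 read 4262, 4020.1, 3314 and 4589.7 in Treg KO and 47.2, 69.5, 27.6 and 18.9 in Tconv KO. Every Treg KO library was above every Tconv KO library, and the mean of the Tconv KO libraries was 1.01% of that of the Treg KO libraries (log2 fold change 6.75 ± 0.28, adjusted p = 4.0e-10). The annotated exons of Foxp3 overlap those of Ccdc22 and Ppp1r3f on the opposite strand and of Ppp1r3fos on its own strand, and no source used here says how reads were assigned to genes. Il2ra, the alpha chain of the interleukin-2 receptor, read 3184, 4025, 4848 and 4465 in Treg KO and 55.9, 69.5, 57.2 and 67.2 in Tconv KO (log2 fold change 6.01 ± 0.13, adjusted p = 7.9e-14), and the groups did not overlap. Helios (Ikzf2) and neuropilin-1 (Nrp1) were also higher in each Treg KO library, but the Tconv KO libraries spread widely. Ikzf2 read 3195, 1215, 1139.5 and 366 in Tconv KO against 7176 to 11240.2 in Treg KO, and Nrp1 read 2251, 1126, 994 and 403 against 2883 to 4686. In both genes sample 575 was the highest and sample 581 the lowest Tconv KO library.

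**Figure D1:**
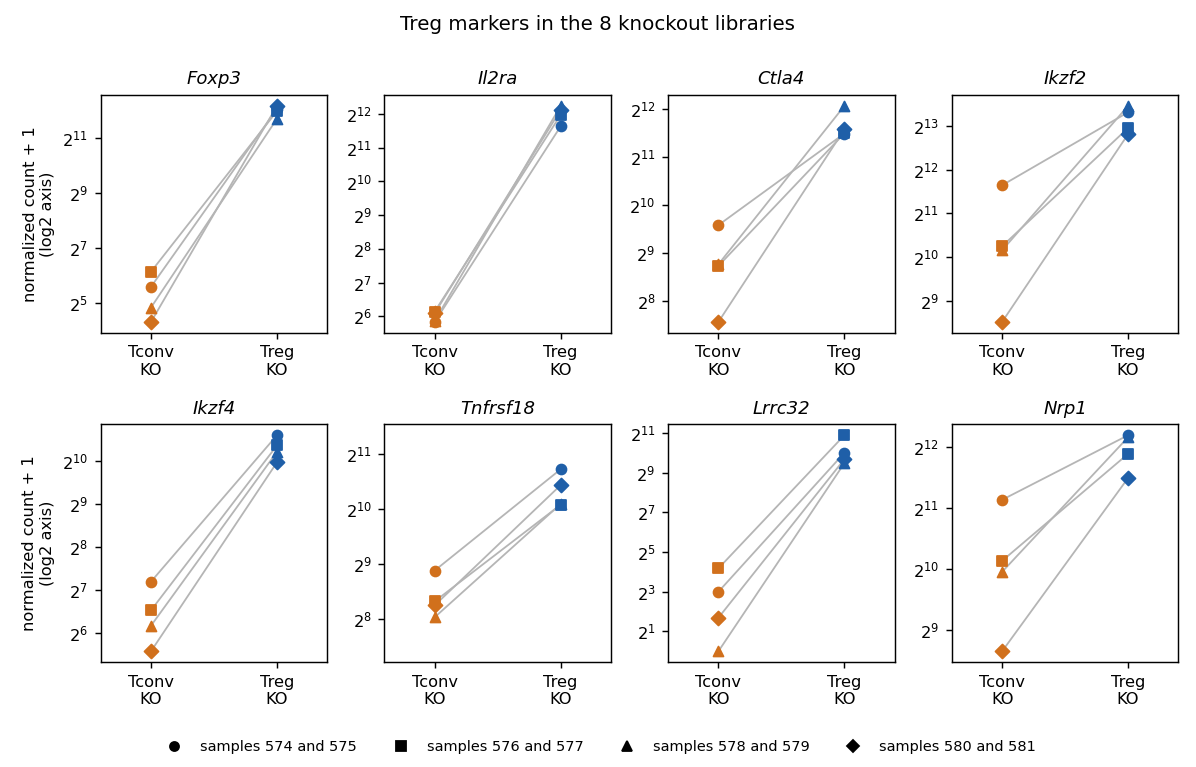
Normalized read count plus 1 (log2 axis, each panel with its own range) of 8 Treg markers in the 4 Tconv KO (orange) and 4 Treg KO (blue) libraries; a line joins adjacent sample numbers. Every line rises, and for Ikzf2, Ctla4 and Nrp1 the Tconv KO libraries spread from the highest value in sample 575 to the lowest in sample 581.

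Hpgd had 0 reads in all 8 KO libraries, which by counting error allows up to 0.193 reads per M reads (M, mega) in Treg KO and 0.139 in Tconv KO. With 1 read in the 4 Treg WT libraries and 0 in the 3 Tconv WT libraries, a loss was not detectable at this depth. Libraries held 2.64 to 4.71 M reads in Treg KO and 2.95 to 10.3 M in Tconv KO, where the deepest library was sample 581. The first principal component of the 8 libraries (55.4% of the variance) separated Treg from Tconv, and the second (16.6%) ran from samples 575 and 574 at one end to samples 580 and 581 at the other. Both cell types carried CD4 T cell transcripts. Cd4 read 6538, 5967, 6451 and 5920.3 in Treg KO and 10364, 8326, 8004 and 7301 in Tconv KO. Cd3e, a chain of the T cell receptor complex, read 2765, 2598, 2479.9 and 2271 in Treg KO and 3017, 2469, 2539 and 2019.7 in Tconv KO. Cd3e overlapped between the groups (0.02 ± 0.10, adjusted p = 0.89), and Cd4 was lower in Treg KO without overlap (-0.44 ± 0.09, adjusted p = 0.0015).

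Markers of other cells were not even between the groups. Their counts stand beside 15.9% higher and 15.7% lower in Treg KO among all genes tested. Of 10 CD8 T and NK cell markers 8 were tested and 7 were lower in Treg KO, with a summed level of 219.6 to 294.5 in Treg KO and 944.8 to 2155 in Tconv KO. Cd8a, which defines CD8 T cells, had 3 reads in each group, Cd8b1, which encodes the other chain of CD8, read 49.7 to 95.0 in Treg KO and 54.2 to 81.7 in Tconv KO and did not pass (log2 fold change 0.10 ± 0.21, adjusted p = 0.76), and the NK cell receptor gene Ncr1 had 0 and 1. Of 11 B cell markers 6 were tested and 5 were higher in Treg KO, 4 of them genes of MHC class II, with a summed level of 958.9 to 2035 against 113.9 to 477.2. The fifth was the B cell receptor chain Cd79b (115 to 166 against 5.70 to 21.0, log2 fold change 3.57 ± 0.32, adjusted p = 9.1e-07), while the B cell lectin Cd22 read 72.8 to 126 against 47.2 to 306 and did not pass (log2 fold change -0.27 ± 0.39, adjusted p = 0.64). Ms4a1 (CD20) had 7 reads in Treg KO and 4 in Tconv KO, and Pax5, which also defines B cells, had 0 and 3. Of 11 myeloid markers 2 were tested and 1 was lower in Treg KO, the integrin gene Itgam (2.15 to 4.35 against 17.7 to 28.5), while Csf1r had 0 and 1 reads; 2 were lower with the block and without sample 575. The part of such cells in the differences below was not tested.

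Treg KO and Tconv KO differed in 3502 of the 11069 genes tested (31.6%): 1762 were higher in Treg KO (15.9%) and 1740 lower (15.7%). Differences of more than 2-fold were less even, with 663 genes higher (5.99%) and 356 lower (3.22%). The 4 values of Treg KO lay above the 4 of Tconv KO without overlap in 1356 genes (12.3%) and below in 1327 (12%). All 4 adjacent sample pairs differed in 1 direction in 3343 of the 3502 called genes (95.5%), against 47.5% of all genes tested. The calls rest on the same 8 libraries and all genes include the called ones, so this contrast is no separate test of the calls. When the spread was taken from the 8 KO libraries alone, 1055 genes were called higher and 945 lower, of which 1047 and 944 were among the genes above. With the adjacent sample numbers as a block, 2118 were called higher and 2089 lower. Without sample 575 the counts were 1982 and 1832, and without sample 581 they were 1511 and 1487. Fewer cells of a type in a sample and less RNA per cell cannot be told apart in such bulk samples.

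**Figure D2:**
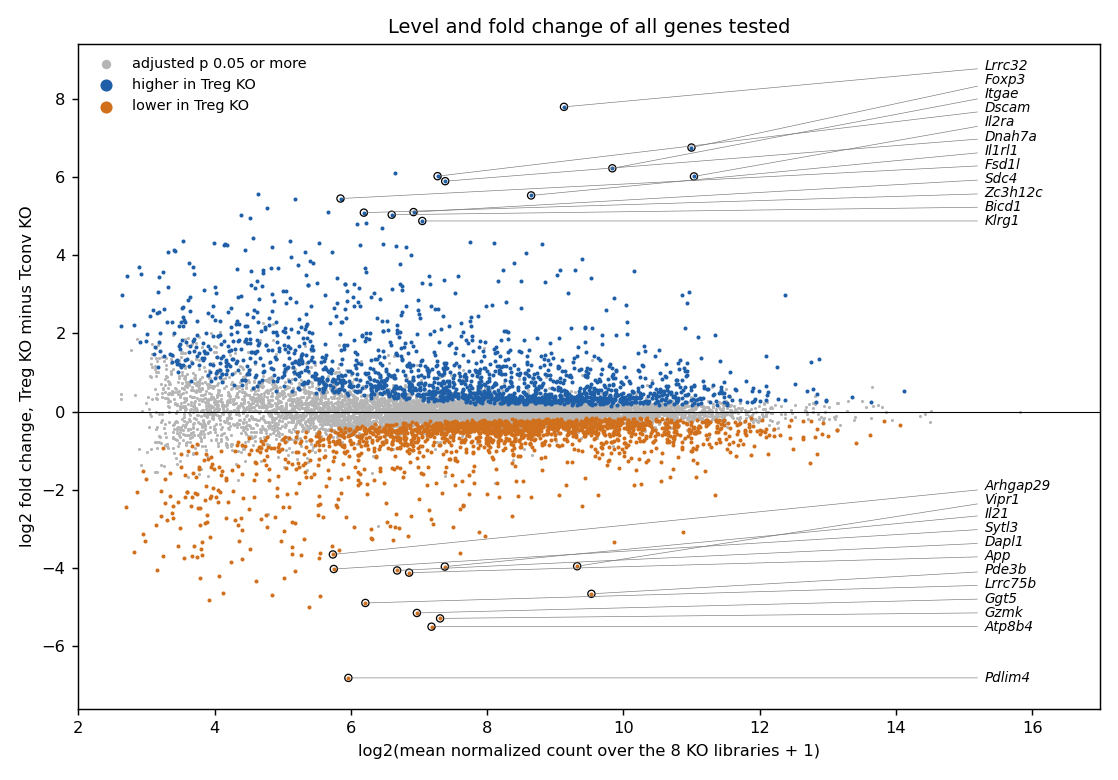
Log2 fold change, Treg KO minus Tconv KO, against the log2 of the mean normalized count over the 8 KO libraries plus 1, for the 11069 genes tested. Blue and orange points are genes with an adjusted p under 0.05, grey points the others. Circles with names are the 12 rises and 12 falls described in the text, from 7.79 (Lrrc32) to -6.81 (Pdlim4). They are the largest among called genes without overlap and with a mean of at least 50, under the exclusions given in the text.

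The largest rises were in genes close to silent in Tconv KO. Lrrc32, which encodes the surface protein GARP that holds latent TGF-beta, read 1021, 1889, 711 and 817 in Treg KO and 6.99, 17.1, 0 and 2.22 in Tconv KO. The lowest Treg KO library stood more than an order of magnitude above the highest Tconv KO library (log2 fold change 7.79 ± 0.64, adjusted p = 4.6e-07; chr7:98489283-98502181, mm10). Itgae, the integrin chain CD103 that binds E-cadherin, read 3112, 1809.9, 1444 and 852 in Treg KO and 26.2, 23.9, 9.86 and 29.5 in Tconv KO (log2 fold change 6.22 ± 0.36, adjusted p = 1.7e-08). Il1rl1, the receptor of interleukin-33, read 1319, 499.8, 480.5 and 828 in Treg KO and 15.7, 5.70, 15.8 and 30.01 in Tconv KO (log2 fold change 5.53 ± 0.41, adjusted p = 1.7e-07). In both genes sample 574 was the highest Treg KO library, and the groups did not overlap. Klrg1, a lectin-like receptor of differentiated T cells, read 332, 129, 207 and 353 in Treg KO and 6.99, 7.98, 3.94 and 11.1 in Tconv KO (log2 fold change 4.87 ± 0.34, adjusted p = 9.3e-08).

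Other large rises were in genes with roles outside the immune system. Dscam, a cell adhesion molecule known from neurons, read 541, 207, 278 and 174 in Treg KO and 21.0, 5.70, 0 and 1.11 in Tconv KO (log2 fold change 6.02 ± 0.70, adjusted p = 1.3e-05; chr16:96590840-97170752). Dnah7a, an axonemal dynein heavy chain of cilia, read 319, 484, 345 and 159 in Treg KO and 12.2, 2.28, 3.94 and 2.22 in Tconv KO (log2 fold change 5.89 ± 0.41, adjusted p = 8.2e-08; chr1:53397006-53706784). In both genes the lowest Treg KO library stood far above the highest Tconv KO library, which was sample 575. The pick asked for groups without overlap, so this separation is no separate result. Both genes passed the filter through Treg KO, as sample 575 alone of Tconv KO reached 10. Fsd1l (5.45 ± 0.33), the heparan sulphate proteoglycan Sdc4 (5.10 ± 0.30), the regnase-family gene Zc3h12c (5.09 ± 0.33) and the dynein adaptor Bicd1 (5.03 ± 0.48) completed the 12 largest, with adjusted p between 1.8e-08 and 1.9e-06 for these 4. Of the levels behind them, Sdc4 ranged from 121 to 411 in Treg KO and from 3.94 to 7.98 in Tconv KO.

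Pdlim4, a PDZ and LIM domain protein of the actin cytoskeleton, was the largest fall. It had 0 reads in each Treg KO library and read 50.7, 129.9, 124 and 186 in Tconv KO, where 541 reads made 25.0 reads per M reads. This pooled Tconv KO rate was 129.9 times the limit that 0 reads allow over the Treg KO group (chr11:54054928-54069014, adjusted p = 1.7e-08). The ratio leaves out the counting error and spread of Tconv KO, where sample 581, the deepest library, was also the highest. Atp8b4, a putative phospholipid flippase, read 4.35, 8.49, 2.15 and 6.69 in Treg KO and 145, 292, 323 and 372 in Tconv KO (log2 fold change -5.50 ± 0.33, adjusted p = 2.3e-08; chr2:126320973-126500674). Gzmk, which encodes granzyme K, read 39.2, 1.21, 2.15 and 1.34 in Treg KO and 708, 335, 122 and 51.1 in Tconv KO (log2 fold change -5.29 ± 0.85, adjusted p = 2.4e-04; chr13:113171608-113225908). The groups did not overlap, yet sample 574 held far more Gzmk than the other 3 Treg KO libraries, and within Tconv KO sample 575 was the highest and sample 581 the lowest.

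Pde3b, a phosphodiesterase that breaks down cyclic AMP, read 43.5, 58.2, 32.3 and 95.0 in Treg KO and 1068, 1111, 1339 and 2158 in Tconv KO (log2 fold change -4.66 ± 0.27, adjusted p = 1.8e-08; chr7:114415281-114539251). Even the lowest Tconv KO library held more than 10 times the level of the highest Treg KO library. Vipr1, the receptor of vasoactive intestinal peptide and also coupled to cyclic AMP, read 60.9, 95.8, 53.9 and 86.9 in Treg KO and 617, 1329.8, 1297 and 1564 in Tconv KO (log2 fold change -3.95 ± 0.28, adjusted p = 9.3e-08). Ggt5, a gamma-glutamyltransferase that acts on glutathione and leukotriene C4, read 2.90, 9.70, 6.46 and 4.01 in Treg KO and 99.6, 276, 288 and 307 in Tconv KO (log2 fold change -5.15 ± 0.39, adjusted p = 1.9e-07). Sample 575 was the lowest Tconv KO library for both Ggt5 and Vipr1. The rest of the 12 falls had adjusted p from 1.8e-08 to 8.4e-04. Among them were App, the amyloid precursor protein (-4.12 ± 0.24), Dapl1 (-4.06 ± 0.47) and Sytl3, a synaptotagmin-like protein of vesicle traffic (-4.03 ± 0.43). Lrrc75b (-4.89 ± 0.46), Arhgap29, a GTPase-activating protein (-3.65 ± 0.68), and Il21, the cytokine interleukin-21 (-3.96 ± 0.68), were the others. Like all 12, these genes were picked for groups that do not overlap. Exons of Sytl3 overlap those of Ezr on the opposite strand, so its level is uncertain.

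Genes of the Treg signature rose nearly throughout: 38 of 39 listed genes were tested, 34 were higher in Treg KO, 0 were lower and 4 missed the threshold, with a median log2 fold change of 1.96 against -0.01 over all genes tested. The counts of this and the following lists stand beside the 15.9% higher and 15.7% lower of all genes. Besides the genes above, the enkephalin precursor gene Penk read 1475, 736, 778 and 317 in Treg KO and 156, 68.4, 27.6 and 5.002 in Tconv KO (4.29 ± 0.70). Ebi3, a subunit of interleukin-35 whose exons overlap those of Gm16712, read 254, 181, 64.6 and 166 in Treg KO and 26.2, 7.98, 1.97 and 3.89 in Tconv KO (4.28 ± 0.53). Ccr8, a chemokine receptor of activated Treg, read 308, 184, 244 and 109.7 in Treg KO and 8.74, 22.8, 7.89 and 5.56 in Tconv KO (4.20 ± 0.40). In these 3 genes the highest Tconv KO library, sample 575 for Penk and Ebi3 and sample 577 for Ccr8, stayed under the lowest Treg KO library. Ikzf4 (Eos), a partner of Foxp3, read 1538, 1304, 1176 and 994 in Treg KO and 145, 91.2, 71.0 and 46.7 in Tconv KO (3.91 ± 0.24). Gpr83, an orphan G protein-coupled receptor, read 399, 451, 588 and 647 in Treg KO and 66.4, 35.3, 45.3 and 55.0 in Tconv KO (3.35 ± 0.20). Among the 4 that did not pass, Il10 read 39.2, 44.9, 38.8 and 20.1 in Treg KO and 59.4, 17.1, 11.8 and 1.67 in Tconv KO: sample 575 held more than any Treg KO library, and the adjusted p was 0.12, or 0.043 with the adjacent numbers as a block and 0.0068 without sample 575. With the block 1 gene of the list was called lower.

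The chains of the interleukin-2 receptor and some STAT5 targets were higher in Treg KO. All 8 listed common gamma chain and interleukin-2 family receptors were tested, 3 were higher and 1 lower, with a median of 0.32. The 3 were the chains of the interleukin-2 receptor. Il2rb read 6564, 6481, 6164 and 5801 in Treg KO and 4122, 2395, 1956 and 1520.1 in Tconv KO (1.42 ± 0.21). The shared chain Il2rg read 5488, 4569.6, 5266 and 4969.5 in Treg KO and 3839, 3934, 3647 and 3653 in Tconv KO (0.43 ± 0.06), a small difference without overlap. The lower one was Il7r, the interleukin-7 receptor chain, which read 4235, 2803, 4598 and 4390.4 in Treg KO and 5122, 4729, 7271 and 7001 in Tconv KO (-0.59 ± 0.21, adjusted p = 0.042). Its call ended without any 1 of Treg KO samples 574 and 576, Tconv KO samples 579 and 581, Treg WT replicates 1 and 2 or Tconv WT replicates 1, 2 and 3 (adjusted p 0.051 to 0.12). It also ended without the pair 576 and 577 (0.080), 578 and 579 (0.10) or 580 and 581 (0.10), with no filter and in the 8 KO libraries alone (0.058 each), whereas the block gave 2.9e-04. Of 15 SOCS and STAT genes 6 were higher and 0 lower, with a median of 0.19. Cish and Socs2, inhibitors of cytokine signalling that STAT5 induces, were among the 6: Cish read 1789, 1601, 1006 and 1487 in Treg KO and 337, 219, 213 and 202 in Tconv KO (2.59 ± 0.17). Socs2 read 236, 355, 258 and 207 in Treg KO and 62.9, 49.0, 19.7 and 47.2 in Tconv KO (2.62 ± 0.28). Stat5a itself differed by 0.54 ± 0.10 (adjusted p = 7.9e-04), although its exons overlap those of Stat3 on the opposite strand.

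Of 17 molecules linked to suppression 16 were tested, 11 were higher in Treg KO and 0 lower, and the median was 1.67. With the spread of the 8 KO libraries alone 7 were called higher. Ctla4, which competes for costimulatory ligands, read 2862, 2870.1, 4266 and 3034 in Treg KO and 764, 424, 434 and 188 in Tconv KO (log2 fold change 2.99 ± 0.28, adjusted p = 1.7e-06). Nt5e (CD73) and Entpd1 (CD39) turn extracellular ATP into adenosine. Nt5e read 2920.3, 2841, 2566 and 1882 in Treg KO and 1743, 1160.0, 932 and 541 in Tconv KO (log2 fold change 1.32 ± 0.25, adjusted p = 8.6e-04), with no overlap. Entpd1 read 341, 351, 306 and 219 in Treg KO and 315, 123, 80.8 and 33.9 in Tconv KO, and the Tconv KO value of sample 575 fell within the range of Treg KO. Its difference was 1.55 ± 0.44 (adjusted p = 0.014), 1.03 without sample 581. The call of Entpd1 ended in the 8 KO libraries alone (adjusted p = 0.075), in DESeq2 (0.060) and without samples 578 and 579 (0.068). Fgl2, a secreted fibrinogen-like protein, read 815, 366, 418 and 229 in Treg KO and 176, 55.8, 39.4 and 35.01 in Tconv KO (log2 fold change 2.73 ± 0.43, adjusted p = 1.9e-04). The growth factor gene Areg read 75.4, 10.9, 30.2 and 16.1 in Treg KO and 0, 2.28, 0 and 0 in Tconv KO (adjusted p = 6.9e-05) on 2 reads in all of Tconv KO.

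Receptors of the TNF family were mostly higher. Of 14 listed 12 were tested, 8 were higher and 2 lower, with a median of 0.99. The costimulatory receptor 4-1BB (Tnfrsf9) read 1322, 833, 1056 and 571 in Treg KO and 152, 101, 67.0 and 36.7 in Tconv KO. Its relative OX40 (Tnfrsf4) read 2189, 1447, 1431 and 1380.1 in Treg KO and 439, 188, 254 and 92.3 in Tconv KO. GITR (Tnfrsf18) read 1686, 1079.6, 1090.2 and 1382 in Treg KO and 472, 320.2, 262 and 305 in Tconv KO. The Treg KO values lay above all Tconv KO values in each, with log2 fold changes of 3.50 ± 0.32, 2.91 ± 0.31 and 1.95 ± 0.16 (adjusted p = 1.5e-06, 6.2e-06 and 3.8e-07). The exons of Tnfrsf18 overlap those of Gm10560. Tnfrsf1b, the TNF receptor 2 of Treg, read 4526, 3569, 3180.1 and 2289.5 in Treg KO and 1736, 979, 747 and 475 in Tconv KO (log2 fold change 1.90 ± 0.28, adjusted p = 1.2e-04). Fas, the death receptor, differed by 1.16 ± 0.11 and Cd27 by 0.69 ± 0.07 (adjusted p = 2.1e-06 and 2.6e-06).

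Of 13 inhibitory receptors and ligands 6 were higher and 1 lower, with a median of 0.72; in the 8 KO libraries alone 3 were called higher. The ligands of PD-1 were among the 6. Pdcd1lg2 (PD-L2) read 425, 292, 420.1 and 270.1 in Treg KO and 129, 83.2, 67.0 and 29.5 in Tconv KO (log2 fold change 2.32 ± 0.31, adjusted p = 5.2e-05). Cd274 (PD-L1) read 1104, 907, 851 and 804 in Treg KO and 617, 493, 453 and 396 in Tconv KO (log2 fold change 0.91 ± 0.12, adjusted p = 5.0e-05). PD-1 itself (Pdcd1) read 1299.8, 797, 926 and 646 in Treg KO and 1468, 854, 692 and 203 in Tconv KO, with the highest and the lowest of the 8 values both in Tconv KO, and did not pass (adjusted p = 0.43). The lower one was the collagen receptor Lair1, which read 11.6, 12.1, 23.7 and 18.7 in Treg KO and 64.7, 90.0, 74.9 and 67.2 in Tconv KO (log2 fold change -2.15 ± 0.24, adjusted p = 1.0e-05). With the block and without sample 581, 2 were called lower, and Lair1 was too low to be tested with a mean of at least 50. Of 11 costimulatory receptors 5 were higher, among them Slamf1 (1.44 ± 0.17) and Cd2 (0.79 ± 0.09), and 2 lower, Cd28 and Cd40lg, with a median of 0.17. The lower ones were 1 without any of samples 574, 575, 576, 577, 579 and 580, Tconv WT replicate 1 and Treg WT replicates 1 and 2, and in the 8 KO libraries alone.

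Transcription factors split in both directions. Of 44 factors of Treg and effector programmes 16 were higher and 10 lower, and the median was 0.16. Apart from Foxp3 and the Ikaros family genes Ikzf2 and Ikzf4, the higher ones included Gata3, the factor of type 2 responses, which read 1612, 1039.6, 821 and 1139 in Treg KO and 617, 432, 398 and 392 in Tconv KO (log2 fold change 1.31 ± 0.17, adjusted p = 3.4e-05). The aryl hydrocarbon receptor Ahr read 582, 482, 256 and 222 in Treg KO and 164, 54.7, 49.3 and 38.4 in Tconv KO (log2 fold change 2.45 ± 0.38, adjusted p = 1.7e-04). The factors Irf4, Prdm1 (Blimp-1) and Batf, which act in effector Treg, differed by 1.33 ± 0.31, 1.42 ± 0.31 and 0.90 ± 0.20 (adjusted p = 0.0038, 0.0028 and 0.0036), and the groups overlapped for Irf4 and Prdm1, where sample 575 read above sample 580. The NF-kappaB subunit Nfkb2 and the growth regulator Myc were also higher (1.03 ± 0.22 and 0.95 ± 0.18). Exons of Gata3 and Nfkb2 overlap those of neighbouring genes. Maf and Rora did not pass (adjusted p = 0.077 and 0.071), but did with the block (0.0021 and 0.0016), without sample 575 (0.0079 and 0.0086), and without sample 580 (Maf, 0.041) or 576 (Rora, 0.0093).

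The lower factors included those of resting and memory T cells. Tcf7 read 3573, 4365, 3889 and 3829 in Treg KO and 8611, 10042, 10734 and 9586 in Tconv KO (log2 fold change -1.31 ± 0.09, adjusted p = 4.3e-08). Lef1 read 615, 821, 692 and 946 in Treg KO and 1510.3, 2448, 3231 and 2913 in Tconv KO (log2 fold change -1.68 ± 0.19, adjusted p = 9.0e-06). Satb1, a chromatin organizer, read 654, 1086, 1291 and 1737 in Treg KO and 1711, 3068, 4264 and 4928 in Tconv KO (log2 fold change -1.53 ± 0.29, adjusted p = 0.001). Tcf7 and Lef1 separated the groups, while for Satb1 the Treg KO sample 580 reached the level of the Tconv KO sample 575. Klf2, which drives the genes of recirculation, read 405, 651, 359.8 and 564 in Treg KO and 967, 1144, 1104 and 1212 in Tconv KO (log2 fold change -1.20 ± 0.15, adjusted p = 3.3e-05). Ikaros (Ikzf1) read 1979, 2500.1, 2603 and 2395 in Treg KO and 4651, 4974, 5258 and 5489 in Tconv KO (log2 fold change -1.11 ± 0.08, adjusted p = 1.7e-07), opposite to its relatives Ikzf2 and Ikzf4, and Runx3 fell by 0.95 on the log2 scale (adjusted p = 1.4e-05).

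Of 16 naive T cell genes 12 were lower and 0 higher, and the median was -1.24. Of a wider list of 28 genes known to be lower in Treg 27 were tested, 20 were lower and 3 higher, with a median of -1.31. Ccr7, the receptor that guides cells into lymphoid tissue, read 524, 1048, 847 and 1054 in Treg KO and 1264, 2162, 2423 and 2620.5 in Tconv KO (log2 fold change -1.29 ± 0.22, adjusted p = 4.5e-04). S1pr1, which lets them leave, read 1188, 1549, 1480.2 and 1931 in Treg KO and 2646, 2827, 2744 and 2868 in Tconv KO (log2 fold change -0.87 ± 0.11, adjusted p = 1.9e-05). Igfbp4, which binds insulin-like growth factors, read 155, 568, 469.7 and 520.2 in Treg KO and 2087, 3479, 3389 and 4398 in Tconv KO (log2 fold change -3.07 ± 0.33, adjusted p = 5.3e-06). Actn1, an actin crosslinker, read 701, 1297, 1295 and 1622 in Treg KO and 1766, 2787, 3718 and 4075 in Tconv KO (log2 fold change -1.32 ± 0.25, adjusted p = 8.7e-04). In these 4 genes no value overlapped, and samples 574 and 575 were the lowest of their groups. Over the naive list as a whole sample 574 was the lowest Treg KO library in 87.5% of the genes and sample 575 the lowest Tconv KO library in 87.5%, against 23.5% and 31.6% of all genes tested.

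Trafficking genes went both ways, 6 higher and 6 lower among 23 tested of 25, with a median of -0.20; 3 were called lower in the 8 KO libraries alone. Ccr6 (148 to 310.5 against 23.7 to 60.6, 2.39 ± 0.29) and Ccr4 (403 to 753 against 181 to 262, 1.26 ± 0.17) were higher with Ccr8 and Itgae. Cxcr6, a receptor of memory and effector cells, read 91.4, 37.6, 45.2 and 77.6 in Treg KO and 528, 320.2, 207 and 285 in Tconv KO and was lower (log2 fold change -2.40 ± 0.31, adjusted p = 3.2e-05).

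**Figure D3:**
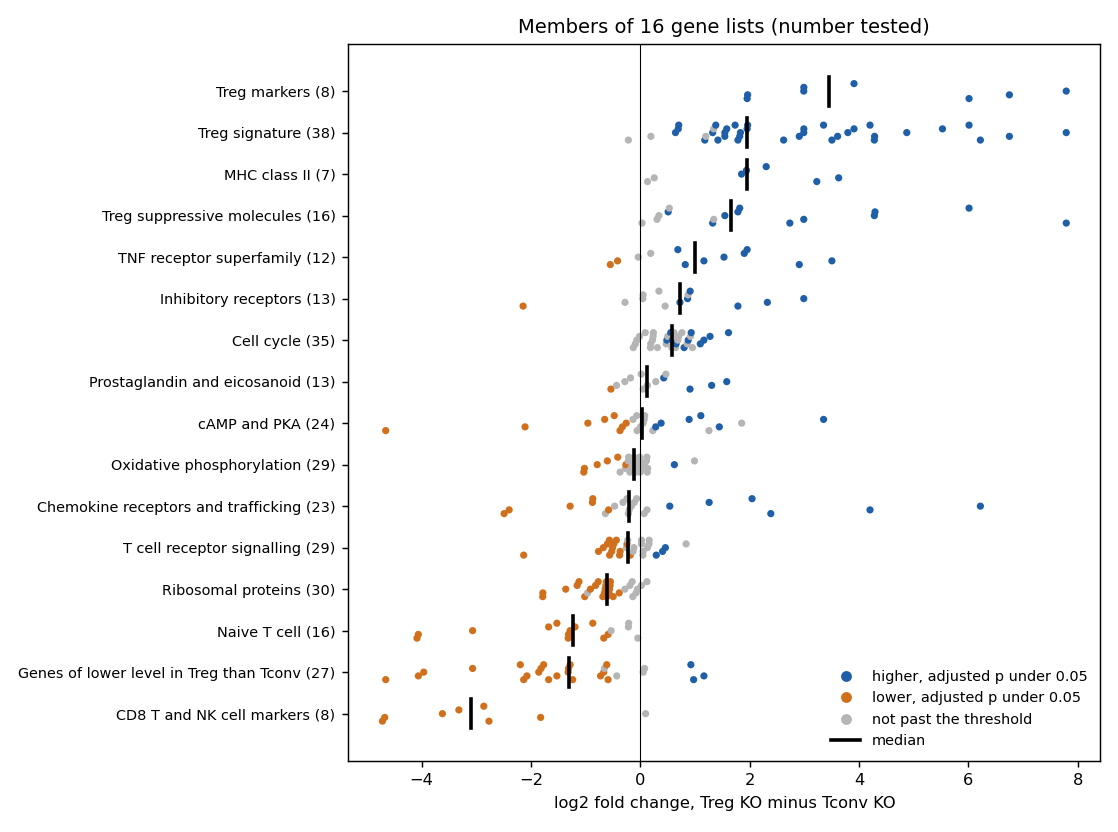
Log2 fold change, Treg KO minus Tconv KO, of each tested member of 16 gene lists (number tested in brackets), in the order of the list medians (black bars). Blue and orange points have an adjusted p under 0.05; the Treg signature holds 34 such genes above 0 and the naive list 12 below 0.

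Genes of T cell receptor signalling were lower more often than higher: 14 of 29 lower and 3 higher, with a median of -0.23. Themis, a scaffold of the receptor pathway, read 284, 304, 325 and 250.1 in Treg KO and 1486, 1210.2, 1311 and 1125 in Tconv KO (log2 fold change -2.14 ± 0.10, adjusted p = 1.9e-09). The adaptor Lat read 2031, 2338, 1616 and 2124 in Treg KO and 3340.4, 3351, 3631 and 3361 in Tconv KO (log2 fold change -0.77 ± 0.09, adjusted p = 1.9e-05). The kinase Lck read 4483, 5454, 4311 and 5052 in Treg KO and 6090.0, 6704, 6248 and 5832 in Tconv KO, a difference of -0.37 ± 0.08 (adjusted p = 0.0034). Themis fell more than 4-fold and the other two by less than 2-fold, none with overlap. The exons of Themis and Lck overlap those of other annotated genes. Egr2, a target of the receptor, did not pass (0.84 ± 0.34, adjusted p = 0.072), but did with the block (3.2e-05) and without sample 575 (0.014) or 580 (0.013). The 3 higher ones, Cd3g, Ubash3a and Egr3, became 5 with the block and without sample 575, and 1 without samples 578 and 579 and in the 8 KO libraries alone.

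Of 27 cytokine genes 18 were tested, 6 were higher and 6 lower, with a median of 0.22. Lta (lymphotoxin alpha) read 331, 440.3, 315 and 381 in Treg KO and 126, 98, 88.7 and 108 in Tconv KO (log2 fold change 1.79 ± 0.13, adjusted p = 1.1e-07). Among the lower ones Cd40lg, the ligand that helps B cells, read 136, 165, 140.0 and 182 in Treg KO and 558, 591, 491 and 487 in Tconv KO (log2 fold change -1.77 ± 0.11, adjusted p = 2.7e-08). Il21, a helper cytokine of germinal centres, read 33.4, 12.1, 32.3 and 2.67 in Treg KO and 563, 338, 282 and 59.5 in Tconv KO. Il21 separated the groups although it spanned almost an order of magnitude within Tconv KO. Tgfb3, a gene of the TGF-beta family, read 0, 10.9, 4.31 and 4.01 in Treg KO and 48.9, 35.3, 39.4 and 18.3 in Tconv KO and was lower (log2 fold change -3.03 ± 0.57, adjusted p = 8.8e-04).

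Of 31 prostaglandin and eicosanoid genes 13 passed the filter, 4 were higher and 1 lower, with a median of 0.13. Ptger2 (EP2) and Ptger4 (EP4), the receptors through which prostaglandin E2 raises cyclic AMP, were both higher. Ptger4 read 940.1, 875, 582 and 662 in Treg KO and 580.3, 408, 349 and 307 in Tconv KO (log2 fold change 0.91 ± 0.17, adjusted p = 8.8e-04), with a small gap between the groups, and its exons overlap those of Ttc33 on the opposite strand. Ptger2 read 718, 625, 499.9 and 366 in Treg KO and 428, 237, 187 and 52.8 in Tconv KO, with sample 575 inside the range of Treg KO (log2 fold change 1.58 ± 0.43, adjusted p = 0.011). Without sample 581 its difference was 1.001, and its call ended in the 8 KO libraries alone (adjusted p = 0.064). Hpgds, a prostaglandin D synthase, read 37.7, 60.6, 75.4 and 41.5 in Treg KO and 10.49, 28.5, 21.7 and 26.1 in Tconv KO (log2 fold change 1.30 ± 0.34, adjusted p = 0.0086), and Lta4h, which makes leukotriene B4, differed by 0.43 ± 0.10 (adjusted p = 0.0033). The lower one, the carbonyl reductase Cbr1, differed by -0.54 ± 0.14 (adjusted p = 0.0087), a call that ended in the 8 KO libraries alone (0.062) and without samples 578 and 579 (0.068) or 580 and 581 (0.053). Without sample 576 the thromboxane receptor gene Tbxa2r was called lower too (-0.67, adjusted p = 0.042). Ptgs2, the inducible cyclooxygenase, had 0 reads in all 8 KO libraries, with the same limits as for Hpgd.

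Of 25 genes of cyclic AMP handling 24 were tested, 6 were higher and 8 lower, with a median of 0.03; 5 were called lower in the 8 KO libraries alone. The lower ones held both enzymes that make cyclic AMP and enzymes that break it down. Adenylyl cyclase 6 (Adcy6) read 72.5, 107, 79.7 and 126 in Treg KO and 302, 484, 452 and 421 in Tconv KO (log2 fold change -2.11 ± 0.19, adjusted p = 1.3e-06). Adenylyl cyclase 7 (Adcy7) read 3492, 3378, 3419 and 3291 in Treg KO and 5394, 5193, 5829.5 and 4982 in Tconv KO (log2 fold change -0.65 ± 0.06, adjusted p = 2.3e-06). The phosphodiesterase Pde7a read 686, 668, 797 and 559 in Treg KO and 1867, 1149, 1138 and 1207 in Tconv KO (log2 fold change -0.96 ± 0.15, adjusted p = 1.7e-04), beside the much larger fall of Pde3b. The cyclic AMP targets Crem, whose exons overlap those of Gm6225, and Sik1 were higher, Crem at 124 to 252 against 70.7 to 99.6 (1.11 ± 0.19) and Sik1 at 211 to 386 against 76.9 to 120.3 (1.44 ± 0.17).

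Of 25 genes of PPAR gamma and lipid handling 17 were tested, 3 were higher and 1 lower, with a median of 0.11. The higher ones were the fatty acid binding protein Fabp5 (42.8 to 95.8 against 10.0 to 21.0, 2.18 ± 0.26), the triglyceride synthase Dgat2 (12.9 to 239 against 0 to 5.24, 4.32 ± 0.73), whose Treg KO values spanned more than an order of magnitude, and Rxra (0.49 ± 0.12). Fabp5 and Dgat2 have means under 50, so 1 of the 3 was called with a mean of at least 50. The lower one, Rxrb, was not called without sample 577, 579 or 581, while 2 were lower without sample 580 and 3 with the block. Pparg, the master regulator of Treg in visceral fat, read 11.6, 8.49, 10.8 and 4.01 in Treg KO and 1.75, 1.14, 1.97 and 3.89 in Tconv KO and was too low to be tested. Of 26 genes of visceral fat Treg 23 were tested, 10 were higher and 3 lower, with a median of 0.57. The higher ones hold Il1rl1, Klrg1, Itgae, Gata3 and Areg, named above. The lower ones were Cxcr6 (-2.40), S100a6 (-1.15) and Anxa2 (-0.84). The remaining 10 tested genes missed the threshold, among them Ccr2, Il10, Rora and Maf.

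Of 35 cell cycle genes 11 were higher and 0 lower, and the median was 0.59. Mki67, a marker of cycling cells, read 862, 858, 1017 and 856 in Treg KO and 668, 370.3, 345 and 358 in Tconv KO (log2 fold change 1.10 ± 0.22, adjusted p = 0.0015). The groups did not overlap, and sample 575 stood far above the other Tconv KO libraries. Rrm2, a subunit of ribonucleotide reductase, differed by 1.16 ± 0.29 (adjusted p = 0.0071, 0.054 without samples 578 and 579), and thymidine kinase Tk1 by 1.27 ± 0.26 (adjusted p = 0.0019), although its exons overlap those of Afmid. Top2a, which encodes the topoisomerase of dividing cells, overlapped and did not pass (0.61 ± 0.27, adjusted p = 0.095, or 0.015 with the block, 0.019 without sample 575 and 0.035 without Treg WT replicate 4). With the block 17 cell cycle genes were called higher, without sample 575 also 17, and without samples 576 and 577 they were 7. Sample 575 was the highest Tconv KO library in 65.7% of these 35 genes, against 33.6% of all genes tested.

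Of 18 tested glycolysis genes 4 were higher, with a median of 0.00, and 2 in the 8 KO libraries alone and without samples 578 and 579. The glucose transporter Slc2a3 read 859, 676, 711 and 798 in Treg KO and 482, 329, 341 and 334 in Tconv KO (log2 fold change 1.04 ± 0.12, adjusted p = 9.0e-06). The lactate dehydrogenase subunits went opposite ways, Ldhb higher (0.74 ± 0.13) and Ldha lower (-0.54 ± 0.06, adjusted p = 1.3e-05). Ldha was the 1 gene called lower, and 3 were called lower without sample 574, 576 or 581 and 4 with the block. Of 29 genes of oxidative phosphorylation 6 were lower and 1 higher, with a median of -0.12. Cox5a, a subunit of cytochrome c oxidase, read 134, 119, 118 and 92.3 in Treg KO and 246, 186, 296 and 223 in Tconv KO (log2 fold change -1.02 ± 0.13, adjusted p = 3.0e-05). The complex I subunit Ndufa1 read 249.5, 248, 297 and 209 in Treg KO and 176, 179, 152 and 141 in Tconv KO and was the higher one (log2 fold change 0.62 ± 0.11, adjusted p = 4.0e-04), with 2 called higher by the block and without sample 578.

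Ribosomal protein genes were lower in Treg KO in 21 of 30, 0 were higher, and the median was -0.62. Rps19 read 627, 586, 592 and 868 in Treg KO and 1883, 1876, 3164 and 2406 in Tconv KO (log2 fold change -1.79 ± 0.16, adjusted p = 9.4e-07). Rps28 read 151, 158, 118 and 233 in Treg KO and 428, 463, 690.0 and 687 in Tconv KO (log2 fold change -1.78 ± 0.18, adjusted p = 3.9e-06). Rpl13 read 1099.6, 1276, 832 and 1184 in Treg KO and 2182, 2043, 3166 and 2423 in Tconv KO (log2 fold change -1.16 ± 0.14, adjusted p = 2.5e-05). No Treg KO value reached a Tconv KO value in these 3 genes. Reads of this family can be shared with processed pseudogenes, and the exons of Rps28 overlap those of Kank3, so the level of any 1 gene is uncertain. Sample 580 was the highest Treg KO library in 80% of the 30 genes and sample 579 the highest Tconv KO library in 76.7%, against 21.6% and 21.3% of all genes tested.

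Of 29 interferon-stimulated genes 6 were higher and 3 lower, with a median of 0.10; 3 were called higher in the 8 KO libraries alone. Gbp3, a guanylate-binding protein, read 1005, 1168, 1400.4 and 924 in Treg KO and 327, 322, 199 and 187 in Tconv KO (log2 fold change 2.14 ± 0.18, adjusted p = 7.2e-07). Oas2, a sensor enzyme of double-stranded RNA, read 36.3, 65.5, 53.9 and 82.9 in Treg KO and 168, 251, 193 and 250.1 in Tconv KO (log2 fold change -1.88 ± 0.21, adjusted p = 8.4e-06). Of 30 tested genes of heat shock and early response 7 were higher and 3 lower, with a median of 0.09, and 11 higher and 5 lower with the block. The lower ones were 1 without sample 574, 577 or 578 and 5 without sample 580. Among the higher ones, Dusp1, a phosphatase of MAP kinases, read 1179, 881, 1183 and 1164 in Treg KO and 505, 348, 463 and 329.6 in Tconv KO (log2 fold change 1.43 ± 0.14, adjusted p = 3.0e-06), and Nfkbia and Tnfaip3, inhibitors of NF-kappaB, differed by 1.11 ± 0.12 and 1.03 ± 0.16. The lower ones were Dusp2, another phosphatase of MAP kinases (775, 848, 892 and 964 in Treg KO and 1346, 1229.5, 1642 and 1149 in Tconv KO, log2 fold change -0.62 ± 0.10, adjusted p = 3.8e-04), Fosb, a subunit of the factor AP-1 (-0.69 ± 0.25, adjusted p = 0.043), and the antiproliferative gene Btg2 (-0.26 ± 0.09, adjusted p = 0.029). The calls of Fosb and Btg2 both ended without sample 574, 575, 577 or 578 (adjusted p from 0.053 to 0.11), and that of Btg2 in the 8 KO libraries alone (0.12). The Fosb call also ended without sample 576 (0.064) or 579 (0.10), without any 1 Tconv WT library or sample 486 of Treg WT (0.055) and in edgeR and DESeq2 (0.062). Of 13 tested BCL2 family genes 5 were higher, with a median of 0.31, among them the survival gene Bcl2l1 (BCL-XL, 1.29 ± 0.17) and the death-promoting gene Pmaip1 (NOXA, 1.16 ± 0.30). The count was 3 in the 8 KO libraries alone and without samples 578 and 579, and 8 with the trend on GC content removed.

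Of 10 MHC class II genes 7 were tested and 5 were higher in Treg KO, with a median of 1.94. Cd74, the invariant chain, read 1583, 846, 859.7 and 653 in Treg KO and 124, 107, 57.2 and 40.0 in Tconv KO (log2 fold change 3.63 ± 0.31, adjusted p = 6.6e-07). H2-Eb1 read 138, 66.7, 58.2 and 28.1 in Treg KO and 19.2, 4.56, 3.94 and 2.78 in Tconv KO (log2 fold change 3.23 ± 0.57, adjusted p = 4.9e-04). H2-DMa and H2-Ob did not pass (0.25 and 0.13). Cd79b was higher as well (115, 136, 166 and 124 in Treg KO and 21.0, 5.70, 9.86 and 9.45 in Tconv KO), whereas Ms4a1 had 7 reads in Treg KO and Pax5 had 0. With reads thinned to 1 depth 3 class II genes were called, and with a mean of at least 50, 2. Of the CD8 T and NK cell markers, perforin (Prf1) read 27.6, 30.3, 28.0 and 58.8 in Treg KO and 301, 239, 256 and 233 in Tconv KO (log2 fold change -2.86 ± 0.23, adjusted p = 3.8e-07). The granule gene Nkg7 read 155, 115, 97.0 and 73.5 in Treg KO and 914, 462, 229 and 214 in Tconv KO (log2 fold change -1.82 ± 0.36, adjusted p = 0.0012). Eomes, the factor of killer and memory cells, read 43.5, 13.3, 12.9 and 25.4 in Treg KO and 778, 404, 181 and 92.8 in Tconv KO (log2 fold change -3.62 ± 0.51, adjusted p = 7.7e-05). The killer-lectin gene Klrk1 read 5.80, 0, 2.15 and 4.01 in Treg KO and 55.9, 78.6, 80.8 and 139 in Tconv KO (log2 fold change -4.72 ± 0.51, adjusted p = 6.7e-06). The Treg KO values of these 4 genes lay below every Tconv KO value. Granzyme B (Gzmb), from the list of suppressive molecules, read 85.6, 18.2, 19.4 and 49.5 in Treg KO and 64.7, 38.7, 21.7 and 25.6 in Tconv KO and did not pass (log2 fold change 0.03 ± 0.47, adjusted p = 0.97). With a mean of at least 50, 3 of the CD8 T and NK cell markers were called lower.

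Within Tconv KO the libraries spread widely in genes of follicular helper cells, the CD4 T cells that help B cells in germinal centres. This list was looked at because earlier results of these data had shown the spread, so its order is a description. In all 17 tested genes (100%) sample 575 was the highest and sample 581 the lowest Tconv KO library, against 33.6% and 27.6% of all genes tested. Sostdc1, a secreted antagonist of bone morphogenetic proteins, read 1120.5, 451, 355 and 24.4 in Tconv KO, and the chemokine receptor Cxcr5, which leads cells into follicles, read 1245, 758, 491 and 268. Samples 575 and 581 were also the highest and the lowest Tconv KO library for Gzmk and Eomes. The 8 tested CD8 T and NK cell markers, which hold Eomes, did not share this order. Among them sample 575 was the highest Tconv KO library in 3 and the lowest in 5. Sample 581 was the highest in 4 and the lowest in 3. In Treg KO sample 580, the neighbour of 581, was the lowest library in 88.2% of the 17 genes, against 22.3% of all genes tested. Sostdc1 read 359.8, 104, 209 and 17.4 and Cxcr5 547, 482, 498 and 392 there. Sample 581 was also the deepest of the 8 libraries with 10.3 M reads, against 3.29 M in sample 575; the part of depth in this order was not tested.

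**Figure D4:**
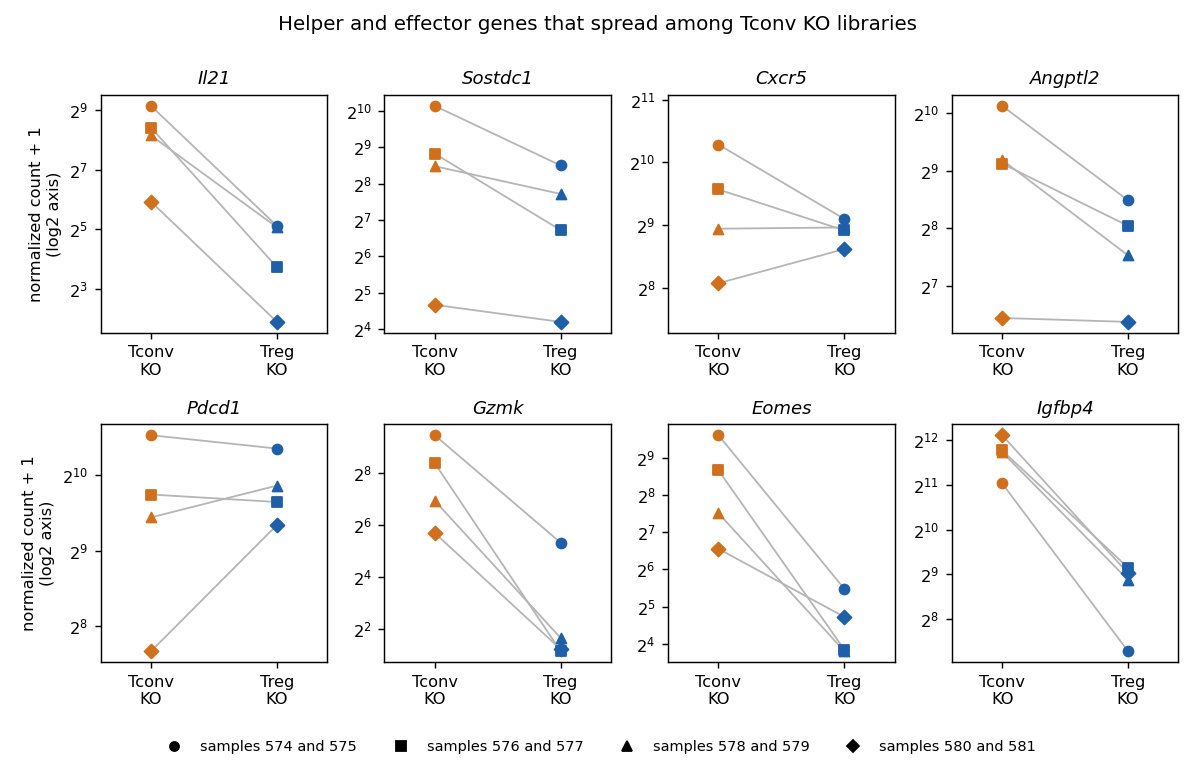
Normalized read count plus 1 (log2 axis, each panel with its own range) of 8 helper and effector genes in the 4 Tconv KO (orange) and 4 Treg KO (blue) libraries; a line joins adjacent sample numbers. Sample 575 (circle) is the highest and sample 581 (diamond) the lowest Tconv KO library in all panels except Igfbp4, a gene of naive cells, where the order is reversed.

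Counts of called helper genes moved with these libraries. Of the 17 genes 3 were higher and 3 lower, with a median of -0.28. Without sample 581, 9 were lower, and without sample 575, 1 was lower and 6 were higher, while the block gave 6 lower and 5 higher. Lower ones were 1 without sample 577 or 579, and higher ones were 1 without sample 577, 578 or 581, and in the 8 KO libraries alone 1 was called in each direction. Sostdc1 (-1.24 ± 0.97, adjusted p = 0.35) and the secreted glycoprotein Angptl2 (-1.11 ± 0.58, adjusted p = 0.16) did not pass, but did with the block (0.0058 and 0.0024) and without sample 581 (0.027 and 0.0015), when Sostdc1 differed by -2.36 and Angptl2 by -1.88. Cxcr5 did not pass in either (-0.32 ± 0.31, adjusted p = 0.47, or 0.27 with the block). P2rx7, the ATP receptor, was among the higher ones (2044, 2193, 2247 and 1648 in Treg KO and 1068, 848, 690.0 and 519 in Tconv KO, log2 fold change 1.42 ± 0.18, adjusted p = 2.3e-05).

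The last comparison asked where the difference between Treg and Tconv was larger or smaller in KO than in WT. The WT contrast, with which the KO contrast shares no library, had 1098 genes higher in Treg (9.92%) and 893 lower (8.07%) among the same 11069 genes. Of these, 917 were also called higher in KO (52.0% of the KO and 83.5% of the WT calls) and 700 also lower (40.2% and 78.4%). Only 3 genes were called in opposite directions, Arhgap11a, Hirip3 and Ubb. Counts of calls in KO and WT are not like for like. Tconv had 3 libraries in WT and 4 in KO, and the genes were filtered on the KO libraries alone. Both contrasts also take the spread of each gene from the same fit over all 15 libraries, so their calls are not independent. Across the 11069 genes, which are not independent replicates, the 2 fold changes ran together with Pearson r = 0.892. The Treg genes were far higher in Treg of WT too: Foxp3 by 7.97 ± 0.30, Il2ra by 6.17 ± 0.14, Lrrc32 by 9.21 ± 0.69 and Ctla4 by 2.97 ± 0.31. The test of the difference between KO and WT gave for these 4 genes adjusted p = 0.37, 0.85, 0.7 and 0.99, with differences of -1.22 ± 0.40, -0.16 ± 0.19, -1.42 ± 0.94 and 0.02 ± 0.42.

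The difference itself was called in 17 genes (0.154%), 4 larger in KO (0.0361%) and 13 smaller (0.117%). Here smaller means that the fold change lay further to the Tconv side in KO. Tmsb10, a thymosin that binds actin monomers, read 484 ± 70.5 (mean ± SD, n = 4) in Treg KO and 1792 ± 442 (n = 4) in Tconv KO, against 2434 ± 245 (n = 4) and 2782 ± 78.7 (n = 3) in WT. Its fold change was -1.87 ± 0.14 in KO and -0.20 ± 0.15 in WT, a difference of -1.67 ± 0.21 (adjusted p = 0.0076). Rps19 differed by -1.59 ± 0.23 (adjusted p = 0.012), Rps28 by -1.62 ± 0.27 (0.031) and Rps27a by -1.32 ± 0.23 (0.033), and the ATP synthase subunits Atp5e by -1.24 ± 0.17 (0.0087) and Atp5l by -1.23 ± 0.20 (0.029). Over the 30 ribosomal protein genes the median fold change was -0.62 in KO and -0.17 in WT, with 21 and 1 called lower, and 2 were called for the difference.

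The 4 genes with a larger difference in KO were Arhgap11a, Hirip3, Cyp4f18 and Gm1821, the last 2 named after their values were seen. Hirip3, which binds the histone chaperone HIRA, was higher in Treg KO (165, 164, 162 and 166 in Treg KO and 131, 119.6, 100.5 and 134 in Tconv KO, 0.44 ± 0.10) and lower in Treg WT (-0.44 ± 0.11), a difference of 0.89 ± 0.14 (adjusted p = 0.029). Arhgap11a, a GTPase-activating protein, differed by 0.48 ± 0.13 in KO and -0.56 ± 0.14 in WT, 1.04 ± 0.19 between them (adjusted p = 0.035). Its KO call ended in the 8 KO libraries alone (adjusted p = 0.054, or 0.055 with the block), without samples 576 and 577 (0.068) and with thinned reads (0.11). Cyp4f18, a cytochrome P450 that acts on leukotriene B4, read 74.0, 93.4, 38.8 and 186 in Treg KO and 1.75, 1.14, 1.97 and 1.11 in Tconv KO and had 0 reads in all 7 WT libraries (adjusted p = 0.0076), a call that ended with a pseudocount of 0.1, in edgeR and in DESeq2. Exons of Hirip3 and Cyp4f18 overlap those of genes on the opposite strand. These calls were few and most were not stable: leaving out any 1 library gave 1 to 7 larger and 2 to 18 smaller ones, and of the 17 genes only Tmsb10 and Sptssa were called under all 33 other settings. Xist read 12989 to 19007 in Treg KO and 8644 to 13152 in Tconv KO and the Y-linked Ddx3y had 0 reads there, while Ddx3y had 7932 reads in Treg WT and 6367 in Tconv WT, so sex, genotype and the run of sample numbers cannot be told apart in this difference. Depth also moved with it, with a mean of 3.89 M reads in Treg KO and 8.35 in Treg WT.

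**Figure D5:**
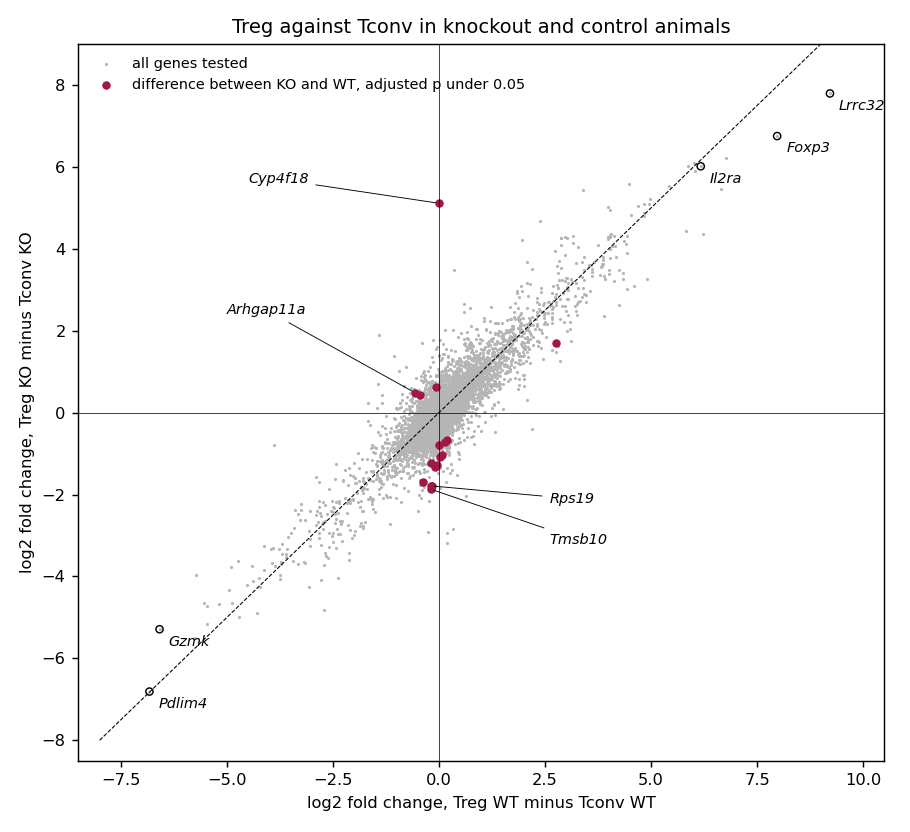
Log2 fold change of Treg minus Tconv in KO against the same in WT for the 11069 genes tested; the dashed line marks equal values. Red points are the 17 genes with an adjusted p under 0.05 for the difference, 13 of them below the line, and open circles mark genes named in the text.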

How the data were processed

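RNA of sorted spleen T cells was sequenced with an Illumina TruSeq RNA kit, per the labels' protocols. TopHat and the mouse genome build mm10 are named in the submitters' processing notes, and no source used here names the counting tool or strand setting. The authors deposited a signal, gene counts divided by 1 size factor per library, and whole reads were recovered from its steps for 100% of the values. Genes that reached 10 in 3 or more of the 8 KO libraries were tested with limma 3.58.1 in R 4.3.3 on log2(value + 1), with a mean-variance trend and 4 group means over all 15 libraries, two-sided. The replicates within a group were numbered in accession order, and samples of adjacent number were checked as pairs. In KO the deviations of paired samples from the group means correlated at 0.534, 0.472, 0.230 and 0.611 over 8981 genes. Other Treg and Tconv samples of KO gave -0.504 to 0.127, so the KO samples pair by that check. In WT the pairs gave 0.224, 0.332 and 0.045, and other samples -0.175 to 0.115. Sample 487 correlated more with sample 490 (0.115) than with its pair 488 (0.045), so the check does not bear out that WT pair. No label used here says whether a pair came from 1 animal.

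Alternatives were other pseudocounts, filters and scalings, edgeR 4.0.16 and DESeq2 1.42.0 on the recovered reads, the pairs as a block, the 8 KO libraries alone, library weights, thinned reads, removed trends on GC content and transcript length, and leaving out each library or pair. Described singly are the 12 largest rises and 12 largest falls among called genes whose groups do not overlap and whose mean over the 8 KO libraries is at least 50, without predicted genes, pseudogenes and receptor segments, the up to 6 largest differences between KO and WT in each direction, and examples from gene lists, chosen after their values were seen, mostly among calls that held under the alternatives. The genes compared and the lists were chosen with earlier results of these data known. Gene names matched the GENCODE vM21 annotation by symbol for 16682 genes and by an older symbol for 695, with 12 ambiguous and 205 unmatched. Intervals and limits on 0 reads cover counting error only. Some genes are not reported here.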

Additional observations from a re-analysis of the deposited data

Results flagged for a closer look

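Of 312 groups of 4 values, 22 held 1 library far from the other 3 by Dixon's criterion, which chance meets in about 1 in 20. In Tconv KO sample 575 was the one apart in 11 genes: it read 176.5 for Fgl2, 337.4 for Cish, 164.3 for Ahr, 354.8 for Slamf1, 1867 for Pde7a, 20.98 for Fabp5, 667.7 for Mki67, 482.4 for Slc2a3, 19.23 for H2-Eb1 and 19.23 for Bicd1, all above the others, and 99.64 for Ggt5, below them. Areg stood apart in sample 577 at 2.279, with 0 in the other 3 libraries, and Lat in sample 579 at 3631.

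In Treg KO sample 578 read 4266 for Ctla4, 922.1 for Slamf1 and 1017 for Mki67, above the others. Sample 574 read 2189 for Tnfrsf4 and 39.17 for Gzmk, where the others held 1.213 to 2.155. Sample 580 read 867.9 for Rps19, 58.84 for Prf1 and 18.72 for App, and sample 576 read 880.7 for Dusp1, under the others.

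The difference of Treg minus Tconv itself differed between KO and WT in 17 genes by limma with an adjusted p under 0.05. It was larger in KO for Arhgap11a (1.04), Hirip3 (0.885), Gm1821 (0.709) and Cyp4f18. For Cyp4f18, at 0 reads in all WT libraries, the fitted value of 5.11 depended on the pseudocount and ranged from 3.30 to 6.14 over the settings, with a largest adjusted p of 1. It was smaller for Tmsb10 (-1.67) and for the ribosomal protein genes Rps28 (-1.62), Rps19 (-1.59), Rps27a (-1.32), Rps13 (-1.11) and Rps23 (-1.04). The ATP synthase genes Atp5e (-1.24), Atp5l (-1.23) and Atp5g2 (-0.856) and the cytochrome c oxidase gene Cox5a (-1.09) were also smaller. So were Pros1 (-1.08), Sptssa (-0.857) and Tma7 (-0.778). Genotype, sex and sample number moved together here and cannot be told apart.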

How the results depend on the processing

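With the spread of the 8 KO libraries alone, 1055 genes were higher and 945 lower in Treg KO, with 1047 and 944 of them shared with the 1762 and 1740; the other settings for all libraries stayed within 1.5 times. The replicate block, which takes adjacent sample numbers as pairs, gave 2118 higher and 2089 lower, and 5 larger and 9 smaller differences between KO and WT, of which 1 and 8 were shared. Beside the genes and lists named with their block value, and the calls for the difference lost under it (Arhgap11a, Hirip3, Atp5l, Cox5a, Gm1821, Pros1, Rps13 and Tma7), it changed no other call of a named gene. Leaving out 1 library gave 1471 to 1982 higher and 1371 to 1832 lower. The difference between KO and WT was less stable: 1 to 7 larger and 2 to 18 smaller without 1 library, 31 and 59 in DESeq2, 18 and 37 with library weights, 8 and 24 with the GC trend removed, 8 smaller with the length trend removed, and 2 larger with thinned reads and also without samples 576 and 577. edgeR called 1726 higher and 1687 lower in Treg KO, and DESeq2 1803 and 1754.

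Of 156 genes named or checked singly 138 were called. Of these, 130 kept the call under every one of the 35 settings that tested them. Examples were chosen mostly among calls that held, so this share does not describe called genes at large. With a mean of at least 50, 139 of the 156 were tested. Directions turned in 7 genes that were not called. Without 1 library Pdcd1 ranged from -0.104 (without sample 581) to 0.846, Cxcr5 from -0.699 to 0.037 (without sample 575) and Cd3e from -0.079 (without sample 581; -0.024 without sample 574) to 0.114. Cd3e was also at -0.029 without samples 580 and 581 and at -0.039 with the GC trend removed. Cd22 ranged from -0.716 to 0.174 (without sample 575) and was at 0.069 without samples 574 and 575, Cd8b1 from -0.042 (without sample 580) to 0.265 with -0.054 under library weights, and H2-Ob from -0.224 (without sample 575; -0.007 without sample 580) to 0.348 with -0.029 without samples 574 and 575. Gzmb ranged from -0.39 (without sample 574) to 0.335 and was also under 0 without sample 579, 580 or 581, without samples 574 and 575 (-0.093) or 580 and 581 (-0.268), with quantile scaling (-0.121) and with the GC trend removed (-0.008). The cause was not tested. TMM and quantile scaling moved the median of all genes by -0.009 and -0.022. Fewer reads in KO limit what could be called among low genes there.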
